A study of Mus musculus with 15 samples.

Results

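The genes described are 10 genes of retinoic acid handling in mouse CD4 T cells, out of 27179 genes counted. They are the binding proteins Crabp2 and Crabp1, the synthesis and interconversion enzymes Rdh10 and Dhrs3, the breakdown enzyme Cyp26b1, the receptors Rara, Rarg, Rxra and Rxrb, and the target gene Tgm2. They were chosen by name with their measured levels in these libraries already known, so their levels and fold changes are a description and carry no test. The data are bulk RNA sequencing of 15 libraries, 5 each from cells labelled Th1, Th17 and Tfh (T follicular helper). All libraries came from one genotype, B6.Cg-Ifngtm3.1Lky-Il17atm1.1Lky, whose name denotes targeted mutations (tm) of Ifng and Il17a. Naive cells spent 3.5 days on plate-bound antibodies to CD3 and CD28 before being sorted into Trizol LS. The Th1 sort took cells positive for interferon gamma and the Tfh sort took CXCR5 positive, IL-17A negative cells. The sources used here give neither the Th17 gate nor the cytokines in the medium, and do not state whether the 5 libraries of a condition were separate mice or cultures.

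Library totals ran from 4.87 M to 25.2 M counts (M for a 1 followed by 6 zeros). Levels are given in CPM, counts scaled to a library of 1 M on TMM-scaled sizes, and 3 counts in a single library corresponded to 0.127 to 0.58 CPM. All 7 CD4 T cell markers checked had counts in every condition. The summed level of the 3 Th1 markers Ifng, Tbx21 and Il12rb2 was 2430 to 2870 CPM in Th1 libraries and at most 77.2 CPM elsewhere. That of 4 Th17 markers was 11000 to 12700 CPM in Th17 libraries and 3990 to 5750 CPM in Tfh libraries. That of 5 Tfh markers was 1630 to 2130 CPM in Tfh libraries and 1300 to 1680 CPM in Th17 libraries. Myeloid and dendritic cell markers, of which 5, 5 and 6 of 7 had a count in Th1, Th17 and Tfh cells, summed to 6.17 to 18.0 CPM there, 1.95 to 5.85 CPM in Th17 and 2.86 to 4.94 CPM in Tfh libraries, and CD8 markers to 7.29 to 26.1, 6.19 to 16.0 and 5.22 to 11.3 CPM. Of 5 B cell markers 4, 2 and 2 had a count in Th1, Th17 and Tfh cells, with Pax5 at 0 throughout and sums of at most 2.59 CPM. Of 2 NK cell markers Ncr1 was at 0 throughout and Klrb1c had 21 counts each in Th17 and Tfh cells, and of 4 stromal markers Pdgfra was at 0 while Col1a1 had 45, 35 and 44 counts, with sums of at most 2.22 CPM. In bulk libraries, fewer cells of a type and less RNA per cell cannot be told apart.

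Retinoic acid is made from retinol in consecutive oxidations, the first by retinol dehydrogenases such as Rdh10 and the second by retinaldehyde dehydrogenases of the Aldh1a family, while Dhrs3 reduces retinaldehyde back to retinol and Cyp26 enzymes degrade retinoic acid. Inside the cell the Crabp proteins bind retinoic acid, and Crabp2 is known to deliver it to nuclear receptors. RAR receptors pair with RXR receptors on DNA at direct repeats of a hexamer, and RXR also pairs with other nuclear receptors. In T cells retinoic acid is known for inducing gut-homing receptors and for its influence on the choice between regulatory and effector fates.

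Promoter sequence for the receptor genes shows how such sites look and where they were and were not found. RefSeq promoter windows (GRCm38.p6) exist in the table used for Rara, Rarg, Rxra, Rxrb, Dhrs3, Cyp26b1 and Crabp1 among the 10 genes. The 250 bases before each start were searched on both strands for the hexamer AGGTCA, for its variant form GGGTCA, for the variant form AGTTCA and for the variant form GGTTCA, and for direct repeats of any of these 4 with 1, 2 or 5 bases between them. Of 32851 windows, 38.6% held at least 1 hexamer, 1.84% held 3 or more, and a repeat was found in 0.164% at spacing 1, 0.174% at spacing 2 and 0.0883% at spacing 5. The windows of Rarb and Cyp26a1, a receptor and a breakdown enzyme known as direct retinoic acid targets, each held a repeat at spacing 5, and they are shown beside the windows of Rara and Rxra, which held 4 and 3 single hexamers. Capitals mark the hexamers on either strand, each sequence reads 5′ to 3′ in the direction of the gene, and the regions are chr14:16575483-16575589 (minus strand), chr19:37697746-37697807 (plus), chr11:98939461-98939665 (plus) and chr2:27709157-27709279 (plus) in that order.
Rarb: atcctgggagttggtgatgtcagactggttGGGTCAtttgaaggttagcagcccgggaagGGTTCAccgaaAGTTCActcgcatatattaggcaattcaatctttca
Cyp26a1: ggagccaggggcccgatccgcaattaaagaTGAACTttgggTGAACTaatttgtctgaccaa
Rara: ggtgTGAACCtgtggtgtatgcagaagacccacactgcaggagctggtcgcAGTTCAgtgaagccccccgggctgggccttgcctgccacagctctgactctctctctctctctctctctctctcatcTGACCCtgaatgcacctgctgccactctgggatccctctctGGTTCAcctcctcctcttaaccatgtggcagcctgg
Rxra: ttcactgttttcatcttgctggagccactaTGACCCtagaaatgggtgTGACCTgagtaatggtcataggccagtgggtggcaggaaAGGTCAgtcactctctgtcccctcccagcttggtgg

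The windows of the 7 genes that have one held no repeat at any of the 3 spacings. The Rara window shown is 1 of 4 starts of that gene, and the other 3 held no hexamer. The Rxra window is 1 of 2, and the other held none. A Rarg window held 1 hexamer, and the windows of Rxrb, Dhrs3, Cyp26b1 and Crabp1 held none. A match describes letters and is not a site, and no match says only that these letters are not in the window. The genes with a spacing-5 repeat were barely present in these cells: Rarb had 17, 32 and 22 counts summed over the 5 Th1, 5 Th17 and 5 Tfh libraries, and Cyp26a1 had 4 counts, all in Tfh libraries. Rarb overlaps Top2b on the opposite strand.

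Crabp2 (Entrez 12904, GRCm38 chr3:87948693-87953372) showed the clearest order of the 3 conditions. Its level in the 5 Th1 libraries was 262, 266, 298, 276 and 247 CPM. In Th17 libraries it was 100, 67.0, 54.4, 65.8 and 69.3 CPM, and in Tfh libraries 12.2, 9.61, 12.7, 12.7 and 12.1 CPM. No library of one condition reached into the range of another. The log2 difference was -1.92 ± 0.15 (SE) for Th17 against Th1, 3.78-fold lower. It was -4.50 ± 0.17 for Tfh against Th1 (22.7-fold lower) and -2.58 ± 0.16 for Tfh against Th17 (5.99-fold lower). Its paralog Crabp1 (Entrez 12903, chr9:54764748-54773110) had no count in any of the 15 libraries, which allows up to 0.0471, 0.0579 and 0.0672 CPM over the summed Th1, Th17 and Tfh libraries. Thus only one of the 2 cellular retinoic acid binding proteins was detected.

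Tgm2 (Entrez 21817, chr2:158116405-158146392), a transglutaminase long used as a retinoic acid induced gene, was highest in Th1 and lowest in Tfh libraries. Th1 libraries had 136, 145, 187, 191 and 162 CPM. Th17 libraries had 114, 99.9, 112, 138 and 117 CPM, and Tfh libraries 25.9, 17.7, 17.9, 24.3 and 20.7 CPM. The Th1 and Th17 ranges overlapped, because the highest Th17 library, at 138 CPM, lay above the lowest Th1 library, at 136 CPM. All 5 Tfh libraries lay below both. The log2 difference was -2.45 ± 0.15 (SE) for Tfh against Th17 (5.47-fold lower), -2.95 ± 0.16 for Tfh against Th1 (7.73-fold lower) and -0.50 ± 0.14 for Th17 against Th1 (1.41-fold lower). Tgm2 overlaps Rprd1b and Gm20412 on the opposite strand, and since the strand setting of the counting is not given, reads of overlapping exons cannot be told apart.

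Among the receptors, Rxra (Entrez 20181, chr2:27676445-27763319), the RXR alpha partner of the RARs, varied most between conditions. Th1 libraries had 7.29, 15.2, 31.5, 27.2 and 21.3 CPM. Th17 libraries had 3.04, 4.76, 3.31, 4.81 and 3.31 CPM, and Tfh libraries 6.77, 4.66, 3.35, 7.17 and 4.15 CPM. The Th1 libraries were all higher than the others, but the lowest of them, at 7.29 CPM, was just above the highest Tfh library, at 7.17 CPM, and Th17 and Tfh overlapped. The log2 difference was -2.42 ± 0.34 (SE) for Th17 against Th1 (5.34-fold lower), -1.99 ± 0.34 for Tfh against Th1 (3.97-fold lower) and 0.43 ± 0.35 for Tfh against Th17.

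Rara (Entrez 19401, chr11:98927800-98974942), the RAR alpha receptor and the most abundant of the 4 receptor transcripts per kb of exon, ran the other way. Th1 libraries had 26.2, 36.8, 65.2, 54.9 and 26.8 CPM. Th17 libraries had 55.6, 50.7, 56.2, 119 and 79.8 CPM, and Tfh libraries 76.7, 71.6, 80.9, 117 and 78.6 CPM. Every Tfh library lay above every Th1 library, while the Th17 range overlapped both. The level was 1.01 ± 0.27 (SE, log2) higher in Tfh than in Th1 (2.02-fold), 0.78 ± 0.27 higher in Th17 than in Th1 (1.71-fold), and 0.23 ± 0.27 higher in Tfh than in Th17. Rara overlaps the small nuclear RNA gene Gm22061 on the same strand.

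Rarg (Entrez 19411, chr15:102234938-102257522), the gamma RAR, and Rxrb (Entrez 20182, chr17:34031812-34038403), the beta RXR, had ranges that overlapped between all 3 conditions. For Rarg the mean level was 21.9 ± 6.79 CPM over Th1 libraries, 17.6 ± 5.31 CPM over Th17 libraries and 15.2 ± 4.28 CPM over Tfh libraries (SD, n = 5 each). Its log2 difference was -0.54 ± 0.26 (SE) in Tfh and -0.32 ± 0.26 in Th17, each against Th1. Rxrb was at 21.8 ± 7.74, 22.0 ± 6.21 and 24.2 ± 8.41 CPM in the same order, and no log2 difference between conditions exceeded 0.13 ± 0.28.

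Set side by side per kb of exon, the receptor transcripts made up different mixtures. Rara made up 39.6 ± 4.57% of the summed per-kb level of the 4 receptor genes in Th1 libraries, 60.7 ± 3.01% in Th17 and 65.0 ± 7.42% in Tfh libraries (mean ± SD, n = 5). No Th1 library passed 44.3%, and no Th17 or Tfh library fell under 53.3%. The Rxra share was 15.2 ± 4.29% in Th1 libraries, 2.79 ± 0.981% in Th17 libraries and 3.13 ± 0.527% in Tfh libraries, and the lowest Th1 library, at 9.58%, was above the highest of the others, at 4.45%. For Rarg the shares were 22.1 ± 5.51%, 15.6 ± 2.88% and 12.0 ± 3.02%, and for Rxrb 23.1 ± 5.07%, 20.9 ± 1.5% and 19.9 ± 4.55%. Since shares sum to 100%, they are not separate measurements.

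**Figure D1:**
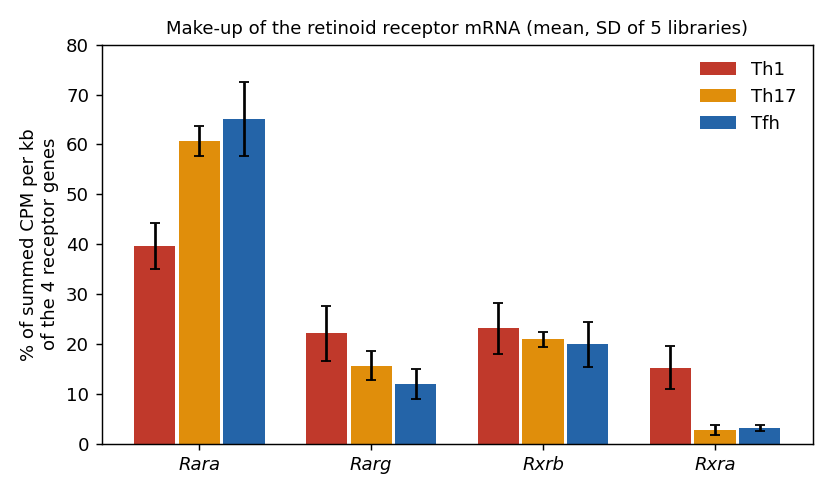
Share of each of the 4 receptor genes in their summed CPM per kb of exon (y axis, %), by condition. Bars are means of 5 libraries and error bars are SD. Rara takes 39.6% in Th1 against 60.7% in Th17 and 65.0% in Tfh libraries, and Rxra is largest in Th1, at 15.2%.

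The receptor genes also varied within a condition. Rara was high in Th17 replicate 4 (119 CPM) and Tfh replicate 4 (117 CPM), and in Th1 replicates 3 and 4. These are also the 4 libraries in which a gene's deviation from its condition's mean rose most with its GC content, with a Spearman correlation over genes of 0.70, 0.57, 0.69 and 0.70 in that order, against -0.65 in Th1 replicate 1, the lowest. Genes are not independent, so these correlations only describe the libraries. After a per-library correction for GC content, the SD of log2 Rara within a condition went from 0.59 to 0.22 in Th1. It went from 0.51 to 0.24 in Th17 and from 0.28 to 0.12 in Tfh. That of Rxrb went from 0.60 to 0.29 in Th1, from 0.38 to 0.10 in Th17 and from 0.50 to 0.42 in Tfh. The SD rose for Rarg in Tfh, from 0.38 to 0.45, and for Rxra in Th17, from 0.30 to 0.32. The cause of the spread was not tested. The fold changes hardly moved: Rara in Tfh against Th1 was 1.04 in place of 1.01, and Rxra -1.94 in place of -1.99 (log2).

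**Figure D2:**
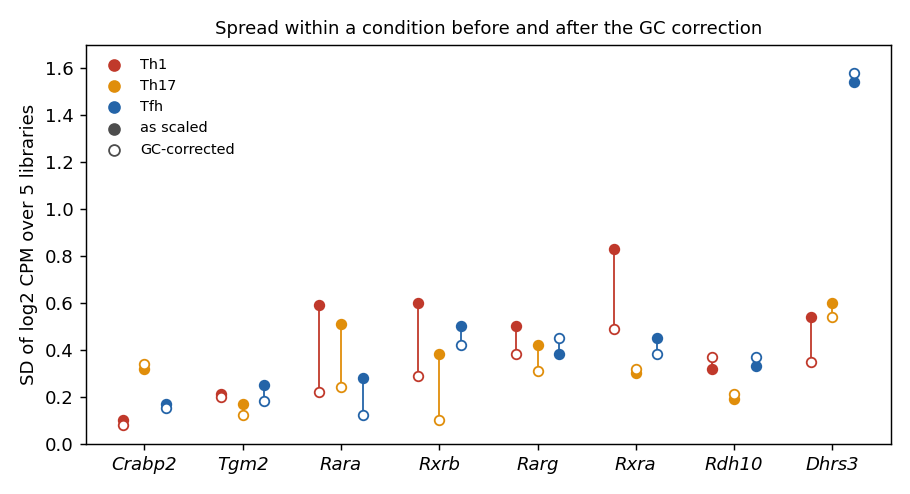
SD of log2 CPM over the 5 libraries of each condition (y axis) for the 8 genes that passed the filter on low counts; filled points as scaled, open points after the GC correction. Rara and Rxrb in Th1 and Th17, and Rxra in Th1, show the widest fall, and the SD of Dhrs3 in Tfh goes from 1.54 to 1.58.

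The enzyme genes were at low levels. Rdh10 (Entrez 98711, chr1:16105882-16132550), which makes retinaldehyde from retinol, had a mean level of 8.6 ± 1.79 CPM over Th1 libraries, 6.84 ± 0.953 CPM over Th17 libraries and 7.49 ± 1.68 CPM over Tfh libraries (SD, n = 5 each), with overlapping ranges and no log2 difference larger than 0.33 ± 0.24 (SE). Dhrs3 (Entrez 20148, chr4:144892534-144928209), which turns retinaldehyde back to retinol, was at 1.68, 2.90, 3.98, 4.15 and 2.04 CPM in Th1 libraries. It was at 0.702, 0.529, 0.34, 1.04 and 1.31 CPM in Th17 and 0, 2.12, 0.98, 0.199 and 1.58 CPM in Tfh libraries. The Th1 and Th17 ranges did not overlap, whereas the Tfh range reached into both. The log2 difference was -1.90 ± 0.66 (3.74-fold) in Th17 and -1.57 ± 0.66 in Tfh, each against Th1.

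Cyp26b1 (Entrez 232174, chr6:84571414-84593908), an enzyme that breaks down retinoic acid, did not pass the filter on low counts. Th17 libraries had 1.76, 0.635, 1.44, 1.22 and 0.349 CPM. Tfh libraries had 0, 0, 0.899, 2.09 and 0.0988 CPM, and only 1 read was counted over the 5 Th1 libraries, in replicate 5 (0.0852 CPM). The 5 Th17 libraries all had reads, and the Tfh libraries differed among themselves from 0 to 2.09 CPM. As a ratio of summed counts at the libraries' scaled sizes, the level was 67.5-fold that of Th1 in Th17 (exact 95% interval 11.6 to 2710) and 47.0-fold in Tfh (7.87 to 1910). The intervals rest on 1 count in Th1 and cover counting error only.

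**Figure D3:**
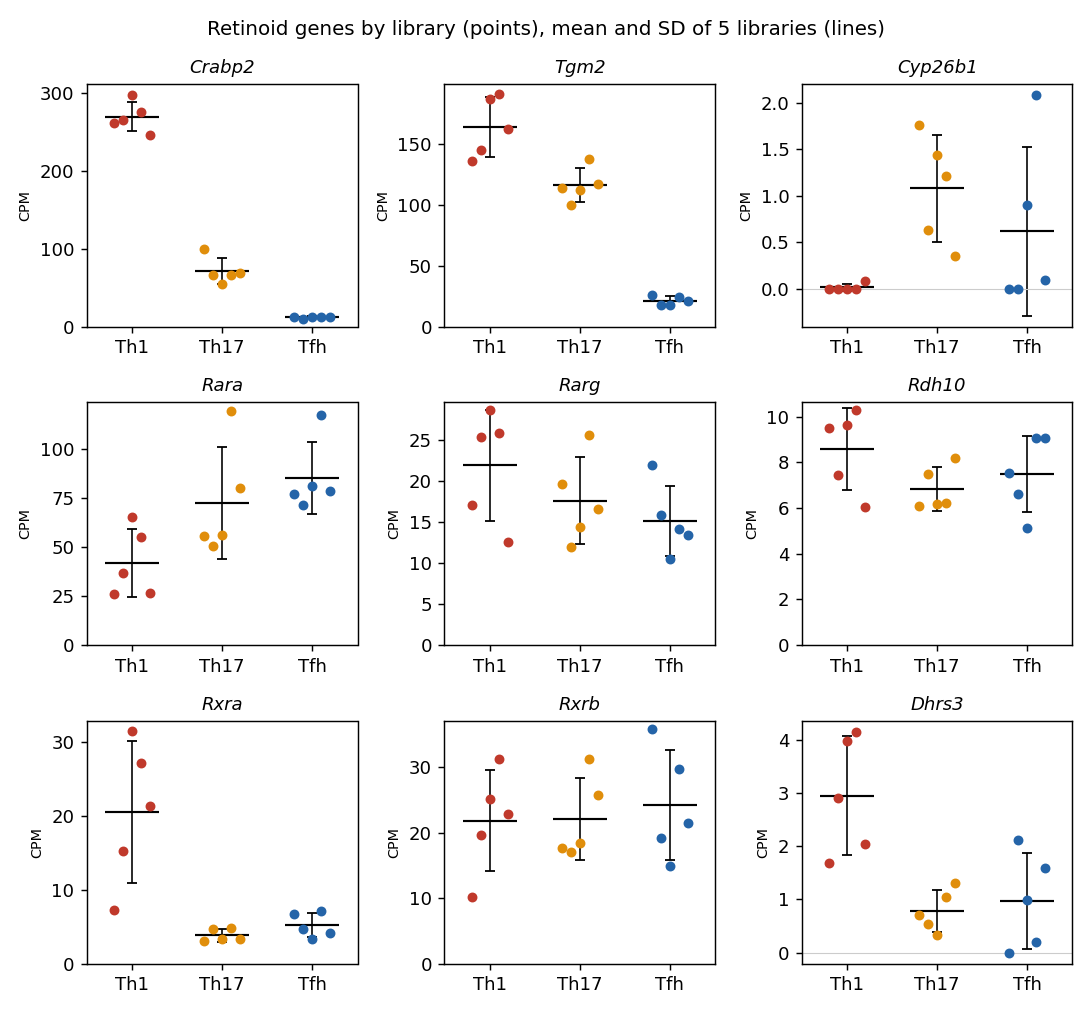
Level of 9 of the 10 genes in each library (y axes, CPM, one scale per gene), by condition. Points are libraries, the horizontal line is the mean and the bar the SD of 5. Crabp2 separates all 3 conditions, Tgm2 separates Tfh from both others, and Rxra and Rara differ between Th1 and Tfh; Crabp1, at 0 in every library, is not drawn.

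Compared per kb of exon, Crabp2 was the highest of the 10 genes in Th1 and Th17 libraries. In Th1 its level was 204 ± 14.2 CPM per kb (SD, n = 5), against 35.6 ± 5.27 for Tgm2 and 9.62 ± 3.99 for Rara. In Th17 libraries Crabp2 was at 54.0 ± 13.0, Tgm2 at 25.2 ± 3.03 and Rara at 16.5 ± 6.51 CPM per kb. In Tfh libraries the order was different, with Rara highest at 19.5 ± 4.17, then Crabp2 at 8.97 ± 0.985, Rxrb at 6.09 ± 2.12 and Tgm2 at 4.62 ± 0.807 CPM per kb.

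The counts of these genes that passed the edgeR test, and the share of all 12591 genes tested that did, are given only as description, since the genes were selected on the same levels. Of the 10, 8 passed the filter on low counts, and Crabp1 and Cyp26b1 did not. In Tfh against Th17, 2 of the 8 were called lower (Crabp2 and Tgm2), where 9.98% of all genes were called lower, and none was called higher, where 6.8% were; at an unadjusted p under 0.05, and by DESeq2 and limma-voom, none was higher either. The libraries of the 2 conditions did not overlap for 2 of the 8, and for 14.5% of all genes. In Tfh against Th1, 3 of the 8 were called lower (Crabp2, Tgm2 and Rxra; 25.2% of all genes) and 1 higher (Rara; 24.1%), and 4 did not overlap (34.3%). In Th17 against Th1, 4 were called lower (Crabp2, Tgm2, Rxra and Dhrs3; 17.8%) and 1 higher (Rara; 19.0%), and 3 did not overlap (28.8%). The 3 comparisons share libraries. Rara in Th17 against Th1 was not called in 6 of 25 alternative settings. Among them were fits without Th1 replicates 1, 2 or 5 or Th17 replicates 4 or 5. Dhrs3 in that comparison was not called in 6. Each of these left out 1 of Th1 replicates 2, 3 and 4 or Th17 replicates 1, 2 and 3. Conversely, in Tfh against Th1 Dhrs3 was called lower in 6 of 25 alternative settings, among them DESeq2 and limma-voom. Rarg was called lower there in 4, among them the GC correction with and without a replicate block.

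The other genes of the pathway were followed through 70 further genes. Their lists, too, were chosen with earlier results of these data known. Their counts, medians and adjusted p-values therefore describe these genes and are not an independent check of the pathway. Of these 12 had no count, 19 were below the filter and 39 were tested. In Tfh against Th17, 4 of 39 were called higher and 4 lower at a Benjamini-Hochberg adjusted p under 0.05 in edgeR, where 6.8% and 9.98% of all genes tested were. In Tfh against Th1 18 rose and 11 fell (24.1% and 25.2% of all genes), with a median log2 difference of 0.45 where that of all genes tested was -0.01, and in Th17 against Th1 15 rose and 7 fell (19.0% and 17.8% of all genes), with a median of 0.28 against 0.03.

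Stra6, the membrane receptor that takes retinol into cells, was at 149, 175, 376, 374 and 206 CPM in Th1 libraries and at no more than 0.85 CPM in any Th17 or Tfh library. It was lower by a log2 difference of -8.98 ± 0.45 (SE) in Th17 (adjusted p = 1.55e-11, edgeR) and -10.77 ± 0.52 in Tfh (adjusted p = 6.36e-12), each against Th1. Stra6 overlaps Ccdc33 on the opposite strand and Gm16131 on the same strand. Aldh1a2, the enzyme that makes retinoic acid from retinaldehyde, had 128 counts over Th1 libraries (2.24, 1.45, 1.86, 2.40 and 2.30 CPM), 4 counts over Th17 libraries and none in Tfh libraries, which is at least 29.9-fold lower than in Th1 when 3 counts are taken as the upper limit over the Tfh libraries (adjusted p = 9.97e-05). Aldh1a1 had no count, Aldh1a3 had 1 and the receptor Rxrg had none. Stra6, Aldh1a2 and Rxra were thus all higher in Th1 libraries. The CD8 marker Cd8a was also higher there, at a mean of 5.52 CPM against 0.259 CPM in Th17 and no count in Tfh libraries (adjusted p = 0.00124 and 8.41e-05, edgeR), whereas Cd8b1 was at 11.4, 10.3 and 7.34 CPM with overlapping ranges. The summed myeloid markers were at 6.17 to 18.0 CPM in Th1 libraries against at most 5.85 CPM elsewhere. Cd68 made up most of that sum, at a mean of 10.7 CPM in Th1 against 3.04 in Th17 and 3.20 in Tfh libraries, while Lyz2 and Itgax had no count in Th1 libraries and Itgam, Csf1r, Adgre1 and Cd14 were under 1 CPM on average in every condition. The part of these markers in the levels was not tested.

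Other enzymes ran in the opposite direction. Dhrs9, a short-chain dehydrogenase that acts on retinol, was at 7.73 CPM or more in every Th17 library and had counts in 1 Th1 library only (0.981 CPM). It rose by 5.93 ± 0.78 (log2, SE) in Th17 against Th1 (adjusted p = 7.52e-06, edgeR). Without Th1 replicate 1 no Th1 count was left and the fitted value went to 9.55, so its size rests on that library. Adh4, an alcohol dehydrogenase that oxidises retinol, rose by 3.29 ± 0.66 in Th17 against Th1 (adjusted p = 0.000655). In Tfh against Th1, Adh1, an alcohol dehydrogenase, rose by 4.39 ± 0.67 (adjusted p = 2.57e-05) and Rdh12, a retinol dehydrogenase, by 1.68 ± 0.19 (adjusted p = 5.09e-07). Both also rose in Th17 against Th1, by 3.36 ± 0.66 and 1.19 ± 0.18 (adjusted p = 0.000549 and 4.52e-05, edgeR). Dhrs9 likewise rose in Tfh against Th1, by 4.47 ± 0.79 (adjusted p = 0.000119, edgeR), or by 8.08 without Th1 replicate 1. Of 10 enzyme genes tested, 5 rose and 3 fell in Tfh against Th1, where 24.1% and 25.2% of all genes did. In Th17 against Th1 5 rose and 1 fell (19.0% and 17.8% of all genes). None was called in Tfh against Th17 by edgeR (6.8% higher and 9.98% lower of all genes). There 5 had an unadjusted p under 0.05, and DESeq2 and limma-voom each called 3. One of the 5 that rose in Tfh against Th1 was Adh4, a call lost in 14 of 25 alternative settings (adjusted p from 0.0528 to 0.181).

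**Figure D4:**
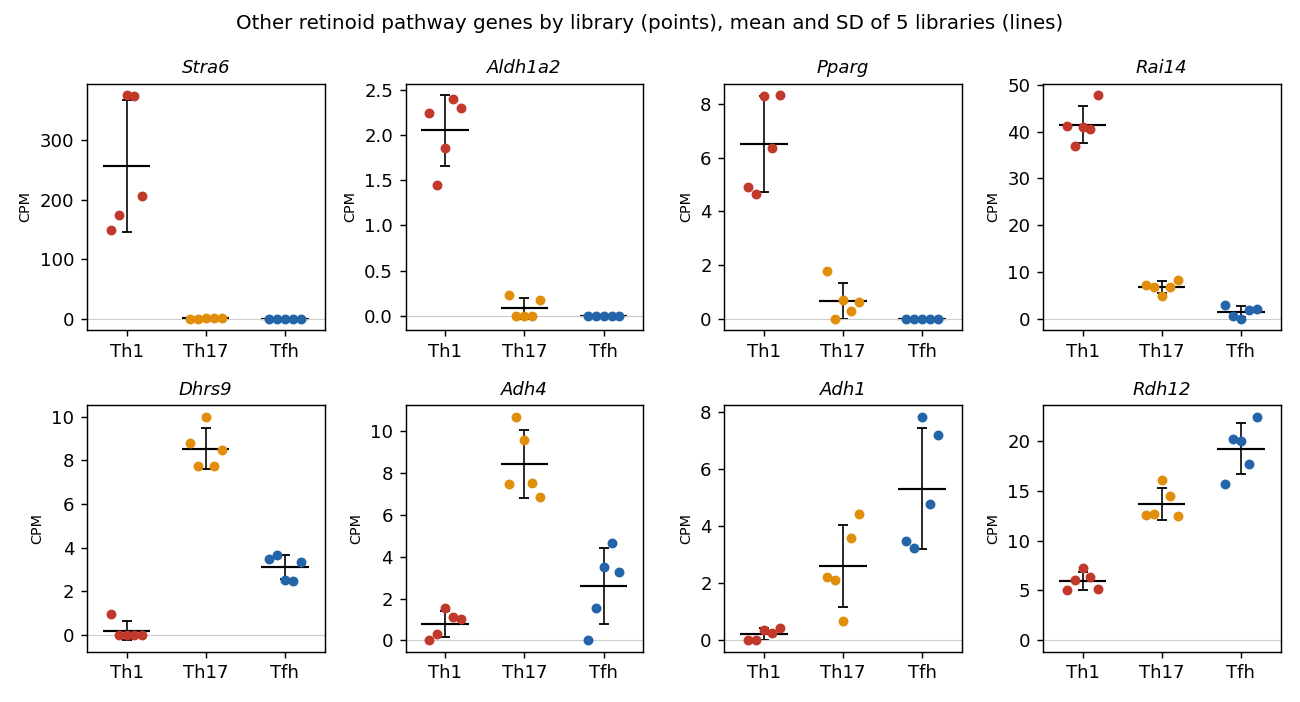
Level of 8 other retinoid pathway genes in each library (y axes, CPM, one scale per gene), by condition; points are libraries, lines are the mean and SD of 5. By mean level, Stra6, Aldh1a2, Pparg and Rai14 are highest in Th1, Dhrs9 and Adh4 in Th17, and Adh1 and Rdh12 in Tfh. None of the Tfh against Th17 differences of Dhrs9, Adh4, Adh1 and Rdh12 was called by edgeR. The Th17 and Tfh ranges of Adh1 and Rdh12 overlap.

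RXR partners and retinoic acid response genes split by direction. Of 7 RXR partner genes tested, 1 rose and 3 fell in Tfh against Th1 (24.1% and 25.2% of all genes). In Th17 against Th1 1 rose and 3 fell too (19.0% and 17.8% of all genes). In Tfh against Th17 none rose and 2 fell (6.8% and 9.98% of all genes). There none was higher at an unadjusted p under 0.05 or by DESeq2 or limma-voom. Pparg, a lipid-sensing receptor that pairs with RXR, was at 4.64 to 8.34 CPM in Th1 libraries and had no count in Tfh libraries, at least 104-fold lower (adjusted p = 1.06e-05, edgeR), and fell by 3.30 ± 0.67 (log2, SE) in Th17 against Th1 (adjusted p = 0.00122), or by a log2 difference of -3.98 without Th17 replicate 1. Nr4a2, an orphan receptor that pairs with RXR, fell by 1.65 ± 0.16 (log2, SE) in Tfh against Th17 (adjusted p = 1.82e-06) and fell by 2.61 ± 0.17 against Th1 (adjusted p = 2.44e-10). Rai14, named for its induction by retinoic acid, fell by 4.88 ± 0.48 in Tfh against Th1 (adjusted p = 1.08e-07). It fell by 2.62 ± 0.40 in Th17 against Th1 (adjusted p = 4.55e-05) and fell by 2.27 ± 0.47 in Tfh against Th17 (adjusted p = 0.00222). P2rx7, an ATP-gated channel, fell by 3.45 ± 0.28 in Th17 against Th1 (adjusted p = 1.30e-08).

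Cd38, an NAD-consuming surface enzyme induced by retinoic acid in many blood cells, moved the other way, from 28.3 CPM (mean) in Th1 to 93.9 in Th17 and 99.8 in Tfh libraries. It rose by 1.73 ± 0.19 (log2, SE) and 1.82 ± 0.19 (adjusted p = 5.55e-07 and 1.93e-07, edgeR). Hic1, a transcriptional repressor, rose by 1.34 ± 0.27 in Tfh against Th1 (adjusted p = 0.000369). The 8 response genes tested thus included 3 that rose and 3 that fell in Tfh against Th1 (24.1% and 25.2% of all genes). In Th17 against Th1 4 rose and 2 fell (19.0% and 17.8% of all genes). Among the co-regulators of nuclear receptors all 10 were tested, and 7 rose and none fell in Tfh against Th1 (24.1% and 25.2% of all genes), with none lower at an unadjusted p under 0.05 or by DESeq2 or limma-voom. Ncor1, a corepressor of unliganded receptors, was at 644 to 843 CPM in Tfh and 517 to 574 CPM in Th17 libraries and rose by 0.41 ± 0.11 (adjusted p = 0.0115). Ncoa1, a coactivator, rose by 0.36 ± 0.11 in Tfh against Th17 (adjusted p = 0.0283), a call lost in 6 of 25 alternative settings, with adjusted p from 0.052 to 0.076, among them without Th17 replicates 1, 2 or 4 or Tfh replicates 4 or 5.

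The genes whose pattern over the 15 libraries was most like that of the 3 members with the widest range of condition means were found by the distance between centred log2 CPM. For Crabp2 they were Tent5a, Tnfrsf9 and Lta, for Tgm2 Anxa2, Akr1b8 and Nr4a2, and for Rxra Lppos, Trp53i11 and Iqsec1. Tent5a, nearest to Crabp2, had mean levels of 191 ± 32.4 CPM (Th1), 38.1 ± 2.98 CPM (Th17) and 7.45 ± 0.599 CPM (Tfh; SD, n = 5 each). Anxa2, nearest to Tgm2, was at 912 ± 204, 434 ± 67.2 and 120 ± 9.89 CPM. When the distance was taken over the 3 condition means instead, 1 of the 3 genes named for Crabp2 and none of those for Tgm2 and Rxra came up again.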

How the data were processed

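Raw read counts per gene were deposited by the authors for 15 libraries, keyed by Entrez ID. Per the submitters' processing notes, STAR 2.7.2b aligned reads to mm10 and featureCounts 1.6.4 counted them; the sources used here do not give the annotation, the strand setting or the treatment of multi-mapping reads. Per the labels, each library used 100 ng of RNA and the Lexogen SENSE V2 kit. Names and coordinates came from RefSeq GRCm38.p6 (25275 IDs) and GENCODE (17), and 1887 IDs had no name. The 10 genes and all lists were chosen with earlier results of these data known.

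In R 4.3.3, edgeR 4.0.16 was used with its default filter on low counts (12591 genes tested, 5472 others with a count left out), TMM scaling and 1 model over all 15 libraries with the quasi-likelihood test; calls were at a Benjamini-Hochberg adjusted p under 0.05. Errors of log2 differences are standard errors. The method was tested on simulated data. Alternatives included DESeq2 1.42.0, limma 3.58.1 (voom), other filters and scalings, a GC correction (91.6% of tested genes had a GC value), a replicate block and leaving out each library. Per-kb levels used the union of exons. Other pathway genes were named, per comparison and direction, as up to 4 called genes without overlap between conditions and with a mean of at least 5 CPM, largest difference first; a few defining genes were named whatever their values. One gene that the rule names is not reported here. Since no label says that replicates are separate mice or cultures, p-values reflect only the spread of these samples, possibly a technical one. No pair of replicates agreed within sampling noise (smallest chi-square 8.38 per gene). Bounds and intervals reflect counting error alone, because PCR copies are not independent molecules.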

Additional observations from a re-analysis of the deposited data

Results flagged for a closer look

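In 68 groups of 5 libraries checked, 5 held a library set apart from the other 4, and chance sets one apart in about 1 of 20 groups. Crabp2 was at 9.61 CPM in Tfh replicate 2, where the other 4 Tfh libraries were at 12.1 to 12.7 CPM. Rara was at 117 CPM in Tfh replicate 4, against 71.6 to 80.9 CPM in the others. Ncoa1 was at 139 CPM in Tfh replicate 5, against 108 to 117 CPM. Cyp26b1 was at 0.0852 CPM in Th1 replicate 5 (1 count) and Dhrs9 at 0.981 CPM in Th1 replicate 1 (7 counts), where the other 4 Th1 libraries had no count. With 4 libraries at 0, any count sets the remaining library apart. The rate of about 1 in 20 therefore does not cover such groups.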

How the results depend on the processing

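All 599 refitted log2 differences of the 8 members tested moved by less than the gene's SD of log2 CPM within conditions. None reversed in a called comparison. That SD is a wide limit that leaving out 1 of 5 libraries can hardly exceed, so this outcome says little about how stable the differences are. Rara in Th17 against Th1 moved by more than its standard error, from 0.78 to 0.49 without Th17 replicate 4. With limma-voom the log2 difference of Dhrs3 in Tfh against Th1 was -2.19, that of Rai14 -5.95, and that of Rai14 in Tfh against Th17 -3.32. Of the named pathway genes, 993 alternative fits kept the call, 28 lost one (Ncoa1, Pparg, Adh4 and Hic1) and 26 gained one. In Tfh against Th17 the number of genes called went from 2113 to 3374 with the GC correction and to 3958 with the GC correction and a replicate block, and the number of other pathway genes called went from 8 to 15 with DESeq2, 17 with a replicate block, 16 with the GC correction and 21 with both; the cause was not tested. Replicate numbers are shared by the conditions, and the deviations of same-numbered libraries correlated at -0.102 to 0.57. Replicate 4 of Tfh correlated at 0.461 with replicate 4 of Th17 and at most at 0.193 with its other replicates. Replicate 4 of Th17 correlated at 0.57 with replicate 4 of Th1 but at up to 0.615 with another. These values do not settle whether the numbers pair the libraries. No label states a pairing, and the main fit used none. With a replicate block alone, 2941 genes were called in Tfh against Th17. With 1 library left out, the genes called ranged from 1613 to 2393 in Tfh against Th17, from 5727 to 6344 in Tfh against Th1 and from 4096 to 5055 in Th17 against Th1. The members called ranged from 2 to 2, 4 to 6 and 4 to 6, and the other pathway genes called from 6 to 10, 26 to 32 and 20 to 24, in the same order. Cyp26b1 could be fitted in only 12 alternatives, none of them without Th17 replicates 1, 3 or 4 or Tfh replicate 4. It was called in all 12 in each comparison with Th1, with 1 Th1 count or, without Th1 replicate 5, none. Whether it could be fitted depended on the libraries where it was high, so these calls are only a description. Depth limits what can be said of Crabp1, Cyp26b1 and Dhrs3.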
